A study of Drosophila melanogaster with 30 samples.

Results

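The genes described here are Frost (Fst, FBgn0037724), smp-30 (FBgn0038257, also named Dca, for Drosophila cold acclimation) and regucalcin (FBgn0030362). They were taken by gene identifier, 3 of the 17807 genes in the deposited count tables, because they are known for their behaviour during cold exposure or recovery. Earlier results of these data were known when they were chosen. The flies were Canton S adult females of the wild-type laboratory strain, reared at 25°C and sealed in tubes of 6 whole flies. Tubes were brought in a water bath, at 0.25°C per minute, to 4°C, 10°C, 34°C or 37°C, and control tubes stayed at 25°C. Each temperature had 3 replicates of 6 flies for rRNA-depleted (rRNA−) and 3 for polyA-selected (polyA+) libraries, 30 libraries in all. Libraries of both types with the same temperature and replicate number are paired here and called a pool, 15 in all, although the sources used here do not say that they came from the same flies. Flies were frozen directly after the bath, so no recovery period was sampled. The methods and the sample records agree on a hold of 5 minutes at 37°C and on none at 10°C, but they differ on whether 4°C or 34°C was held. The legend of the study's design figure gives 5 minutes without naming an exception, and a number of flies other than 6. It names both library types for the frozen flies, without stating that each replicate gave both. The age of the flies is not given in the sources used here, and no source says whether the pools of a temperature came from separate cultures, so that p-values measure the spread between these pools.

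Frost was first isolated as a gene induced while Drosophila recovered from cold shock, and it encodes a predicted secreted protein. smp-30 and regucalcin are the fly relatives of mammalian regucalcin, or senescence marker protein, a calcium-binding protein of liver and kidney that also acts as a lactonase in sugar acid metabolism in rodents. smp-30 was isolated in flies for its response to cold acclimation and is thought to have arisen by duplication of regucalcin. Chilling disturbs calcium, ion and water balance in insects, and genes of these systems are the usual companions of the 3 genes in studies of cold.

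The 3 genes lie apart in the genome (dm6 assembly, Ensembl release 115 annotation). Fst occupies 3R:9644978-9646154 on the minus strand as a single exon of 1177 bp with 858 bp of coding sequence. It sits inside an intron of Dh44, the gene of diuretic hormone 44, which is transcribed from the other strand and shares 0 exonic bp with it. smp-30 occupies 3R:14745901-14751246 on the minus strand in 5 exon blocks that total 1666 bp, within the span of jvl on the other strand, with 0 exonic bp shared. regucalcin occupies X:12012377-12017375 on the plus strand in 5 exon blocks of 1708 bp, and its last exon shares 151 bp with Chrac-16 on the other strand. smp-30 and regucalcin have the same coding plan: a coding exon of 719 bp is followed by a last coding segment of 190 bp, together 909 bp, with an intron of 58 bp between them in smp-30 and 57 bp in regucalcin. The first coding segment differs, with 9 bp in smp-30 and 48 bp in regucalcin. Both library kits keep strand, but the setting used in counting is not given in the sources used here, so reads of regucalcin and Chrac-16 in their shared stretch may not have been separated.

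**Figure D1:**
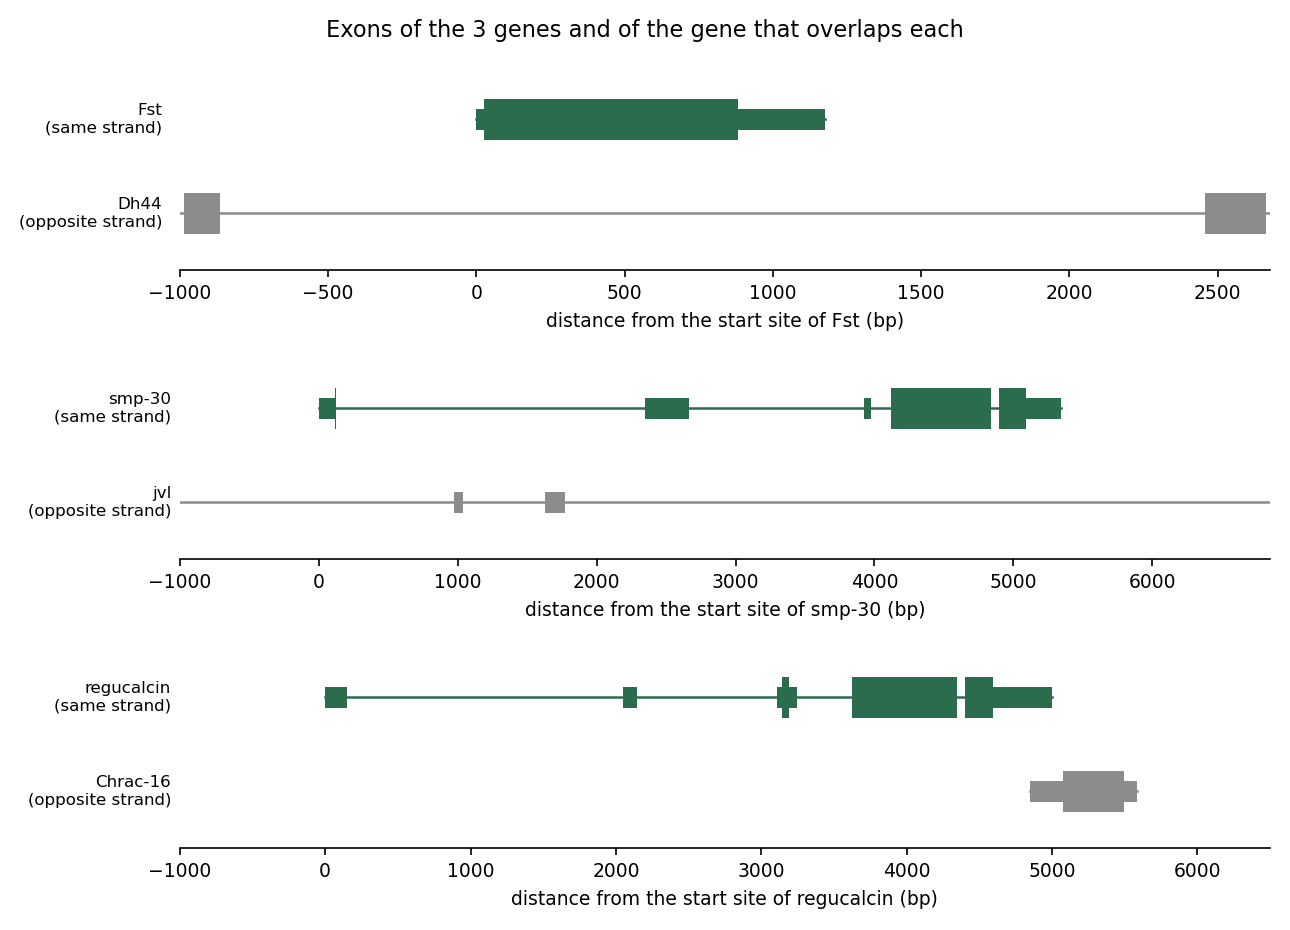
Exons of Fst, smp-30 and regucalcin (green) and of the gene on the opposite strand that overlaps each of them (grey), against the distance from the start site of each member in bp. Thick boxes are coding, thin boxes are untranslated and lines are introns or the continuing span of a longer gene; of the 3 genes only regucalcin shares exonic sequence with its overlapping gene, over 151 bp.

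The counts of the table with equalized depth held 2067003 to 5541348 reads per rRNA− library and 2188773 to 5925256 per polyA+ library, and levels are given as CPM, read counts scaled to library size by edgeR's TMM factors. Male genes summed to at most 4.87 CPM in any library. In 5 polyA+ libraries, replicate 2 at 10°C, replicates 2 and 3 at 34°C and replicates 1 and 2 at 37°C, the share of the full counts held by 111 histone genes was 0.00173% to 0.00476%, against 0.0144% to 0.0240% in the other 10. These 5 are called low-histone libraries here, and log2 fold changes in polyA+ libraries are also given without them. Their removal leaves 2 libraries at 10°C and 1 each at 34°C and 37°C, so that the spread at 34°C and 37°C is then taken from the other groups.

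In rRNA− libraries Fst was higher in all 12 libraries from flies moved away from 25°C than in any library from flies kept there, in cold and in heat alike. Counts were 26, 41 and 42 at 4°C, 39, 36 and 81 at 10°C, 37, 38 and 33 at 34°C and 56, 87 and 71 at 37°C, against 20, 6 and 11 at 25°C. As TMM-scaled CPM, the libraries read 7.0, 13.4 and 10.5 at 4°C, 13.7, 11.9 and 38.4 at 10°C, 10.6, 7.43 and 7.55 at 34°C and 13.8, 22.4 and 17.8 at 37°C, against 3.98, 1.18 and 2.68 at 25°C. No group away from 25°C overlapped with the 25°C libraries, and the highest value stood alone at 10°C. Among the 9718 genes tested in rRNA− libraries, 0.710% had all 12 of these libraries above all 3 at 25°C. The sum of 9 female reproductive genes, of which 0 were at 0, was likewise higher in all 12 libraries than in any at 25°C. It was 37978 to 41693 CPM at 4°C and 42503 to 58177 CPM at 10°C in the cold, and 42522 to 47899 CPM at 34°C and 45178 to 52613 CPM at 37°C in heat, against 29505 to 35711 CPM at 25°C. Its part in the Fst result was not tested.

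The rise of Fst passed the test at 10°C and at 37°C. At 10°C Fst averaged 21.3 ± 14.8 CPM against 2.61 ± 1.4 CPM at 25°C (SD, n = 3 each), a log2 fold change of 3.00 (SE 0.49, edgeR adjusted p = 0.00818). Of the 3 members only Fst passed at 10°C, while regucalcin had a log2 fold change of 0.66 (edgeR adjusted p = 0.0736). In this comparison 1.39% of all tested genes rose and 5.11% fell. Without the 10°C library of 38.4 CPM the log2 fold change of Fst was 2.31 (edgeR adjusted p = 0.0433), and without 25°C replicate 3 it was 3.02 (edgeR adjusted p = 0.060). Over 13 alternatives the adjusted p ran from 6.0e-07 to 0.961, with 11 passing. At 37°C Fst averaged 18.0 ± 4.29 CPM against the same 2.61 ± 1.4 CPM at 25°C (SD, n = 3 each), a log2 fold change of 2.77 (SE 0.48, edgeR adjusted p = 0.00392). This call held when any single library at 37°C or 25°C was left out, but it was lost in the fit of 30 libraries. Over 13 alternatives the adjusted p ran from 1.3e-06 to 0.376, with 12 passing. At 37°C, 3.22% of tested genes rose and 1.54% fell.

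At 4°C and 34°C the Fst values were above those at 25°C without passing. At 4°C Fst averaged 10.3 ± 3.19 CPM against 2.61 ± 1.4 CPM at 25°C (SD, n = 3 each), with a log2 fold change of 1.96 (SE 0.49, edgeR adjusted p = 0.723). By its p before adjustment Fst stood at rank 14 of 9718 genes. The only gene that passed at 4°C in rRNA− libraries was vri, 0.0103% of those tested. DESeq2's Wald test gave a log2 fold change of 2.00 for Fst at 4°C (adjusted p = 0.0374), and the other 12 alternatives did not pass (up to 1.0). At 34°C Fst averaged 8.53 ± 1.79 CPM against 2.61 ± 1.4 CPM at 25°C (SD, n = 3 each), with a log2 fold change of 1.69 (SE 0.49, edgeR adjusted p = 0.0890), and DESeq2 gave 1.74 (adjusted p = 0.0195), the 1 of 13 alternatives that passed (others up to 0.991). At 34°C, 1.08% of tested genes rose and 0.247% fell.

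Within the cold and within heat, no difference between temperatures passed for Fst. From low to high the mean levels in rRNA− libraries stood in the order 25°C, 34°C, 4°C, 37°C and 10°C, and no step between neighbours in this order passed the test. Between 37°C and 34°C the log2 difference was 1.08 (SE 0.44, edgeR adjusted p = 0.317). All 3 libraries at 37°C were above all 3 at 34°C, but the share of all genes with this was not computed. In that comparison 0.206% of tested genes rose and 0.0309% fell. Between 4°C and 10°C it was -1.04 (SE 0.44, edgeR adjusted p = 0.267), or -0.33 without 10°C replicate 3, and these groups overlapped. Between 37°C and 10°C it was -0.23, with a 95% interval of -1.07 to 0.62, where 2.06% of tested genes rose and 1.2% fell.

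**Figure D2:**
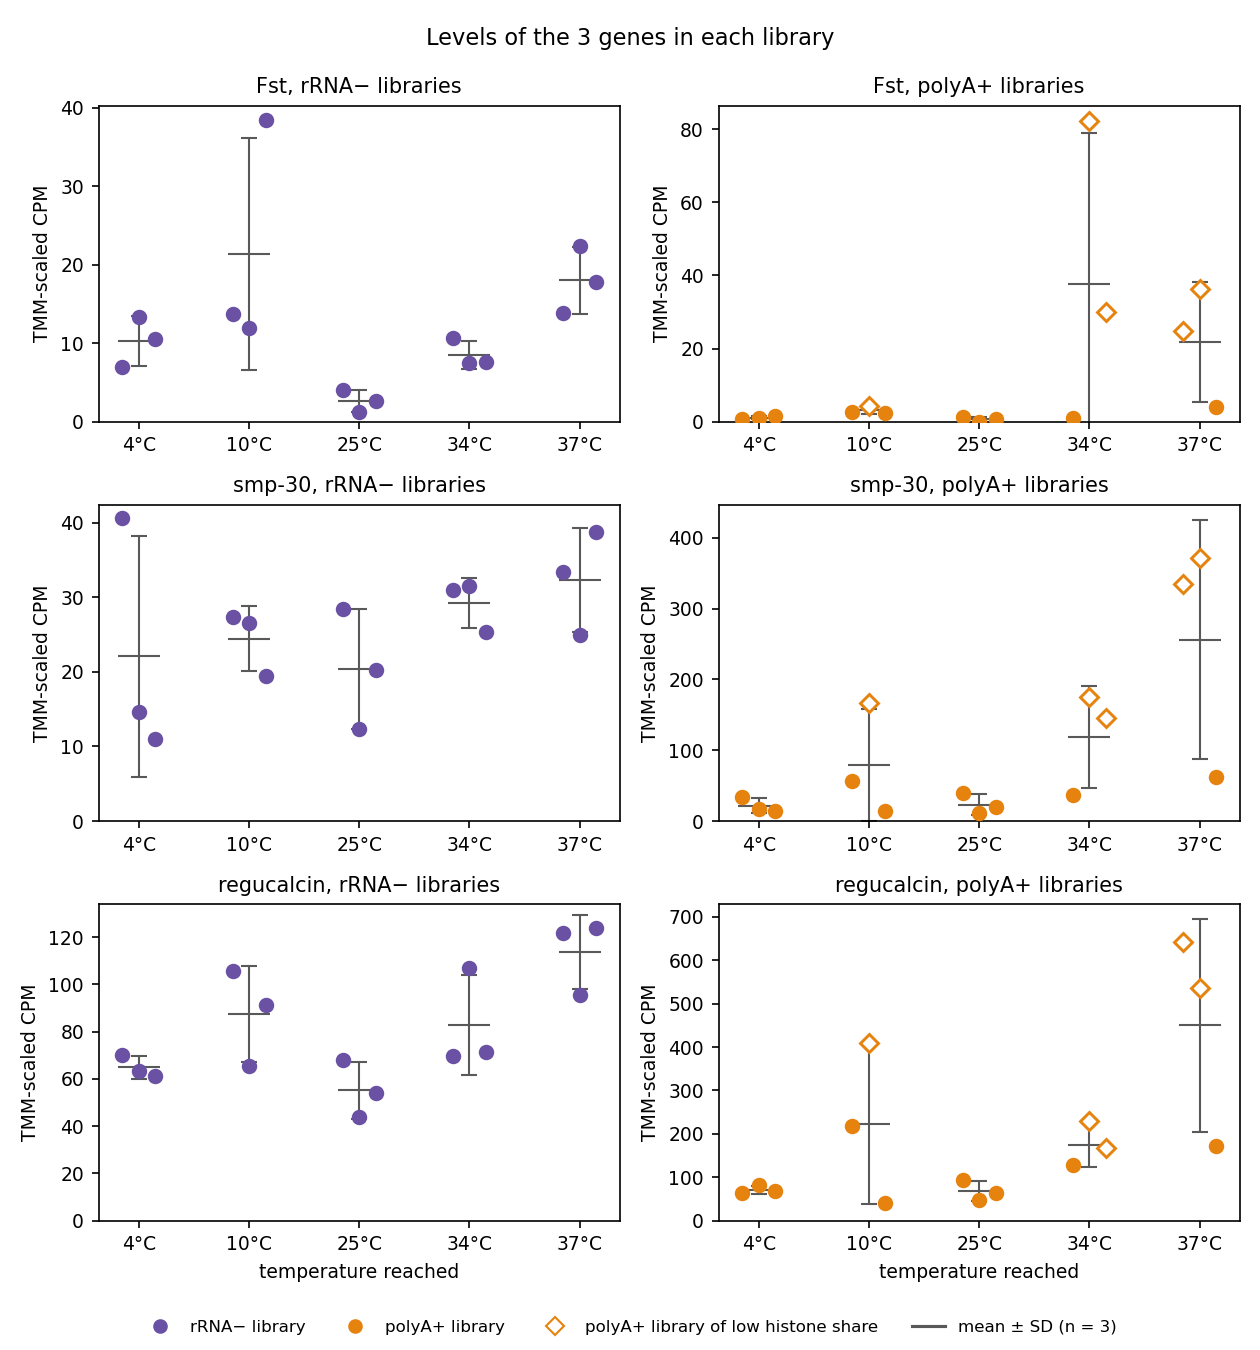
TMM-scaled CPM of Fst, smp-30 and regucalcin in each rRNA− (left, purple) and polyA+ (right, orange) library by temperature; crosses are the mean ± SD of 3 libraries, cut off at 0, open diamonds are the 5 low-histone libraries and the y axes differ between panels. In rRNA− libraries Fst lies at 1.18 to 3.98 CPM at 25°C and at 7.0 CPM or more at every other temperature, while in polyA+ libraries the highest values of each gene are open diamonds.

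In polyA+ libraries Fst had at most 14 equalized counts in all but 4 libraries. The full counts at 85 bp were higher, with 22, 25 and 70 at 4°C and 80, 117 and 61 at 10°C. They were 12 in replicate 1 at 34°C and 86 in replicate 3 at 37°C. Equalized counts were 4, 3 and 6 at 4°C, 6, 13 and 7 at 10°C, 3, 470 and 155 at 34°C and 92, 127 and 14 at 37°C, against 6, 0 and 3 at 25°C. As CPM these were 0.803, 1.02 and 1.5 at 4°C, 2.60, 4.24 and 2.35 at 10°C, 1.06, 82.2 and 29.9 at 34°C and 24.9, 36.4 and 3.89 at 37°C, against 1.27, 0 and 0.729 at 25°C. The count of 0 allows up to 3 counts, or 0.509 CPM in that library, for counting error only. That library also held 0 counts of Fst among its 25117857 full counts at 85 bp. The 3 libraries at 10°C and the 3 at 37°C were above all those at 25°C, as for 3.18% and 18.9% of tested polyA+ genes, whereas 34°C held both the highest library and one inside the range at 25°C.

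Fst passed the test in polyA+ libraries at 37°C only. It averaged 21.7 ± 16.5 CPM at 37°C against 0.667 ± 0.639 CPM at 25°C (SD, n = 3 each), a log2 fold change of 5.01 (SE 1.31, edgeR adjusted p = 0.0493). In this comparison 3.76% of the 9257 tested genes rose and 0.162% fell. The call was lost without any 1 of the 3 libraries at 25°C or of replicates 1 and 2 at 37°C, with adjusted p from 0.0676 to 0.215, and without the low-histone libraries the log2 fold change was 2.54 (SE 1.16, edgeR adjusted p = 0.970), from 1 library at 37°C. At 34°C the mean was 37.7 ± 41.1 CPM and the log2 fold change 5.81 (SE 1.34, edgeR adjusted p = 0.233), and it was 0.56 without the low-histone libraries, which leave 1 library at 34°C. At 34°C, 0.0864% of tested genes rose and 0 fell by edgeR, with 49 lower at an unadjusted p under 0.05 and 6 lower by DESeq2. At 4°C and 10°C no gene passed in polyA+ libraries in either direction by edgeR's test. At 4°C 37 genes were higher and 21 lower at an unadjusted p under 0.05, and 0 and 3 by DESeq2. At 10°C these counts were 534 and 50 at an unadjusted p under 0.05, and 57 and 3 by DESeq2. Fst gave log2 fold changes of 0.75 (SE 1.31) at 4°C and 2.20 (SE 1.27) at 10°C, and without the low-histone libraries 0.77 and 1.83.

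smp-30 passed the test at no temperature in rRNA− libraries. Its CPM was 40.6, 14.7 and 11 at 4°C, 27.3, 26.5 and 19.4 at 10°C, 30.9, 31.5 and 25.4 at 34°C and 33.3, 25.0 and 38.8 at 37°C, against 28.4, 12.4 and 20.2 at 25°C. Every group overlapped with 25°C. Replicate 1 was the highest of its group at 4°C and at 25°C, and it was so in both library types. Against 25°C the log2 fold change was 0.12 at 4°C and 0.27 at 10°C (SE 0.41 each), and in heat it was 0.53 at 34°C and 0.67 at 37°C (SE 0.40 each). None passed (edgeR adjusted p from 0.409 to 1.0), and the 95% intervals reached from -0.68 to 0.93 at 4°C and from -0.12 to 1.46 at 37°C. Leaving out replicate 1 at 4°C turned the value there to -0.67 (edgeR adjusted p = 0.625), and leaving out 25°C replicate 2 gave -0.14, with adjusted p from 0.625 to 1.0 over 13 alternatives.

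In polyA+ libraries smp-30 spanned a much wider range. Its CPM was 34.3, 17.0 and 14.5 at 4°C, 56.8, 167 and 14.1 at 10°C, 37.2, 175 and 145 at 34°C and 334, 372 and 62.5 at 37°C, against 39.7, 11.2 and 19.4 at 25°C. All 3 libraries at 37°C were above those at 25°C, as for 18.9% of tested genes, and replicate 3, at 62.5 CPM, stood far below the other two. At 37°C smp-30 averaged 256 ± 169 CPM against 23.4 ± 14.6 CPM at 25°C (SD, n = 3 each), a log2 fold change of 3.45 (SE 0.91) that missed the threshold (edgeR adjusted p = 0.0509). It passed with DESeq2 size factors in edgeR (3.70, edgeR adjusted p = 0.0403), on the full counts (3.64, edgeR adjusted p = 0.0427) and by DESeq2's Wald test (3.69, adjusted p = 0.00047), 3 of the 7 among 15 alternatives that passed, with adjusted p up to 0.970 in the others. Without the low-histone libraries it was 1.42 (SE 0.85, edgeR adjusted p = 0.970), from 1 library at 37°C. At the other temperatures none passed. At 10°C the value was 1.76 (SE 0.86), and 0.58 without 10°C replicate 2 or 0.51 without all low-histone libraries. At 34°C it was 2.35 (SE 0.87), and 0.53 without the low-histone libraries, while at 4°C the values were -0.09 (SE 0.84) and, without them, -0.050.

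regucalcin was the most evenly measured of the 3 and rose at 37°C in both library types. In rRNA− libraries it read 70.2, 63.3 and 61.1 CPM at 4°C, 106, 65.3 and 91.5 CPM at 10°C, 69.9, 107 and 71.4 CPM at 34°C and 122, 95.8 and 124 CPM at 37°C, against 67.8, 43.7 and 54.0 CPM at 25°C. The libraries at 34°C and 37°C were all above those at 25°C, as for 13.4% and 12.6% of tested genes, while 4°C and 10°C overlapped with it. At 37°C it averaged 114 ± 15.7 CPM against 55.2 ± 12.1 CPM at 25°C (SD, n = 3 each), a log2 fold change of 1.04 (SE 0.21, edgeR adjusted p = 0.00988). Without 25°C replicate 2 the value was 0.90 (edgeR adjusted p = 0.0555) and without 25°C replicate 3 it was 1.03 (edgeR adjusted p = 0.0544), while 10 of 13 alternatives passed (0.00021 to 0.947 over all).

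The cold values of regucalcin in rRNA− libraries did not pass. At 10°C it averaged 87.4 ± 20.4 CPM against 55.2 ± 12.1 CPM at 25°C (SD, n = 3 each), a log2 fold change of 0.66 (SE 0.21, edgeR adjusted p = 0.0736), and DESeq2's Wald test gave 0.69 (adjusted p = 0.0382), 1 of 3 passing among 13 alternatives (0.0306 to 0.961). At 4°C the log2 fold change was 0.23 (SE 0.21), with a 95% interval of -0.18 to 0.65. At 34°C it was 0.59 (SE 0.21, edgeR adjusted p = 0.137). From low to high the means stood in the order 25°C, 4°C, 34°C, 10°C and 37°C, with no neighbouring pair passing. Further apart in this order, 37°C was above 4°C by 0.81 (SE 0.21, edgeR adjusted p = 0.0486), a comparison in which 2.02% of tested genes rose and 1.06% fell.

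In polyA+ libraries regucalcin read 64.2, 81.5 and 67.1 CPM at 4°C, 219, 409 and 41.3 CPM at 10°C, 128, 229 and 167 CPM at 34°C and 642, 536 and 172 CPM at 37°C, against 93.3, 47.0 and 63.2 CPM at 25°C. The 10°C libraries lay on both sides of the 25°C range, and those at 34°C and 37°C were all above it, as for 8.18% and 18.9% of tested genes. At 37°C the mean was 450 ± 246 CPM against 67.8 ± 23.5 CPM at 25°C (SD, n = 3 each), a log2 fold change of 2.73 (SE 0.67, edgeR adjusted p = 0.0407). It was 1.34 (SE 0.71, edgeR adjusted p = 0.970) without the low-histone libraries, from 1 library at 37°C, and the call was lost without any 1 of the 3 libraries at 25°C or of replicates 1 and 2 at 37°C (edgeR adjusted p from 0.0604 to 0.205). At the other temperatures none passed. At 10°C the value was 1.72 (SE 0.65), and 0.93 without 10°C replicate 2 or 0.85 without all low-histone libraries. At 34°C it was 1.37 (SE 0.64), and 0.77 without the low-histone libraries, while at 4°C the values were 0.06 (SE 0.63) and, without them, 0.08.

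**Figure D3:**
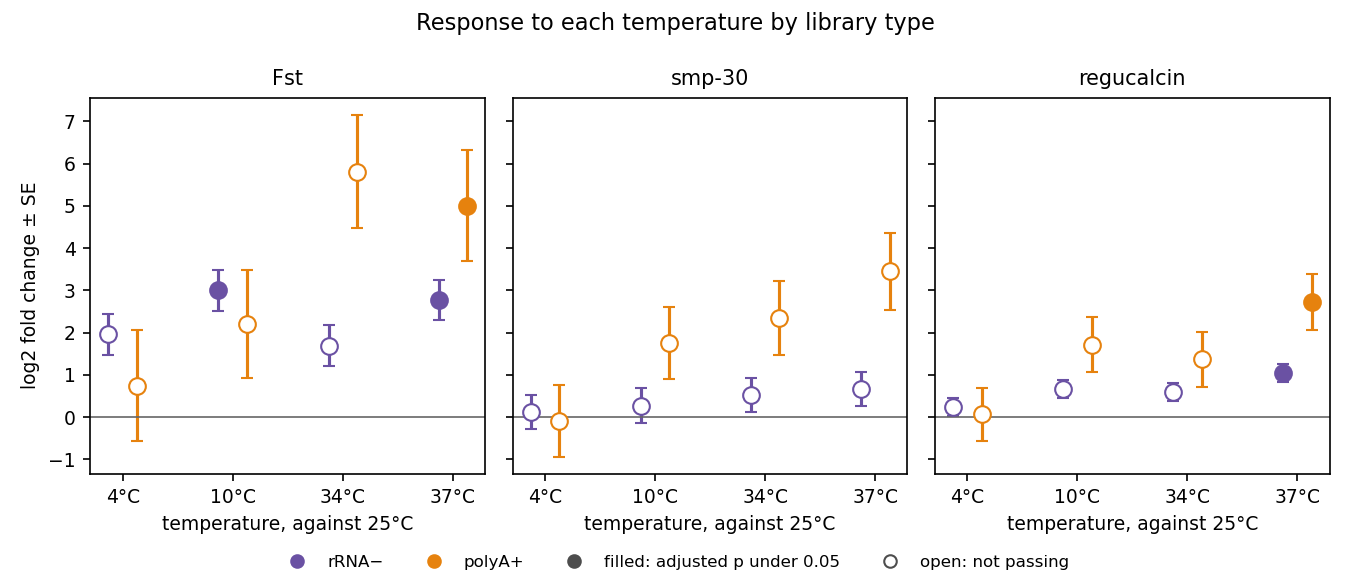
log2 fold change ± SE against 25°C of each gene at 4°C, 10°C, 34°C and 37°C in rRNA− (purple) and polyA+ (orange) libraries, from edgeR fits of 15 libraries of each type; filled points have an adjusted p under 0.05. Filled are Fst at 10°C (3.00) and 37°C (2.77) and regucalcin at 37°C (1.04) in rRNA− libraries, and Fst (5.01) and regucalcin (2.73) at 37°C in polyA+ libraries.

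Fst and smp-30 were highest in the same 5 polyA+ libraries, those of low histone share, and regucalcin was high in them too. Fst read 4.24 to 82.2 CPM in these 5 and 0 to 3.89 CPM in the other 10, so that the sets did not overlap. smp-30 read 145 to 372 CPM in the 5 and 11.2 to 62.5 CPM in the other 10, again without overlap. regucalcin read 167 to 642 CPM in the 5 and 41.3 to 219 CPM in the other 10, which overlapped through replicate 1 at 10°C and replicate 3 at 37°C. Of all tested polyA+ genes, 7.73% had the 5 libraries above all 10 others.

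Within a temperature the contrast remained. At 37°C the low-histone libraries held Fst at 24.9 and 36.4 CPM against 3.89 CPM in the other, a log2 difference of 2.80. The same difference at 37°C was 2.49 for smp-30 and 1.76 for regucalcin, beside a median of -0.17 over all genes. At 34°C the differences were 5.00 for Fst, 2.08 for smp-30 and 0.61 for regucalcin, and at 10°C they were 0.67, 2.53 and 2.10 in the same order. All 3 genes were higher in every low-histone library of these 3 temperatures than in the other libraries of that temperature, which 16.2% of tested genes were.

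In the rRNA− libraries of the same pools this contrast was seen only for regucalcin at 34°C, as for 31.9% of tested genes at that temperature. In rRNA− libraries the pools of low histone share differed from the others of their temperature by -0.92 at 10°C, -0.47 at 34°C and -0.01 at 37°C for Fst. For smp-30 the differences were 0.20, -0.13 and -0.42, and for regucalcin -0.59, 0.32 and -0.20, in the same order of temperatures. Summed fat body genes also ranged more widely in polyA+ libraries at 10°C (702 to 1744 CPM), 34°C (905 to 2354 CPM) and 37°C (590 to 1799 CPM) than at 25°C (561 to 1003 CPM). The part of the histone share, of the fat body genes or of the RNA behind them in the polyA+ levels was not tested.

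**Figure D4:**
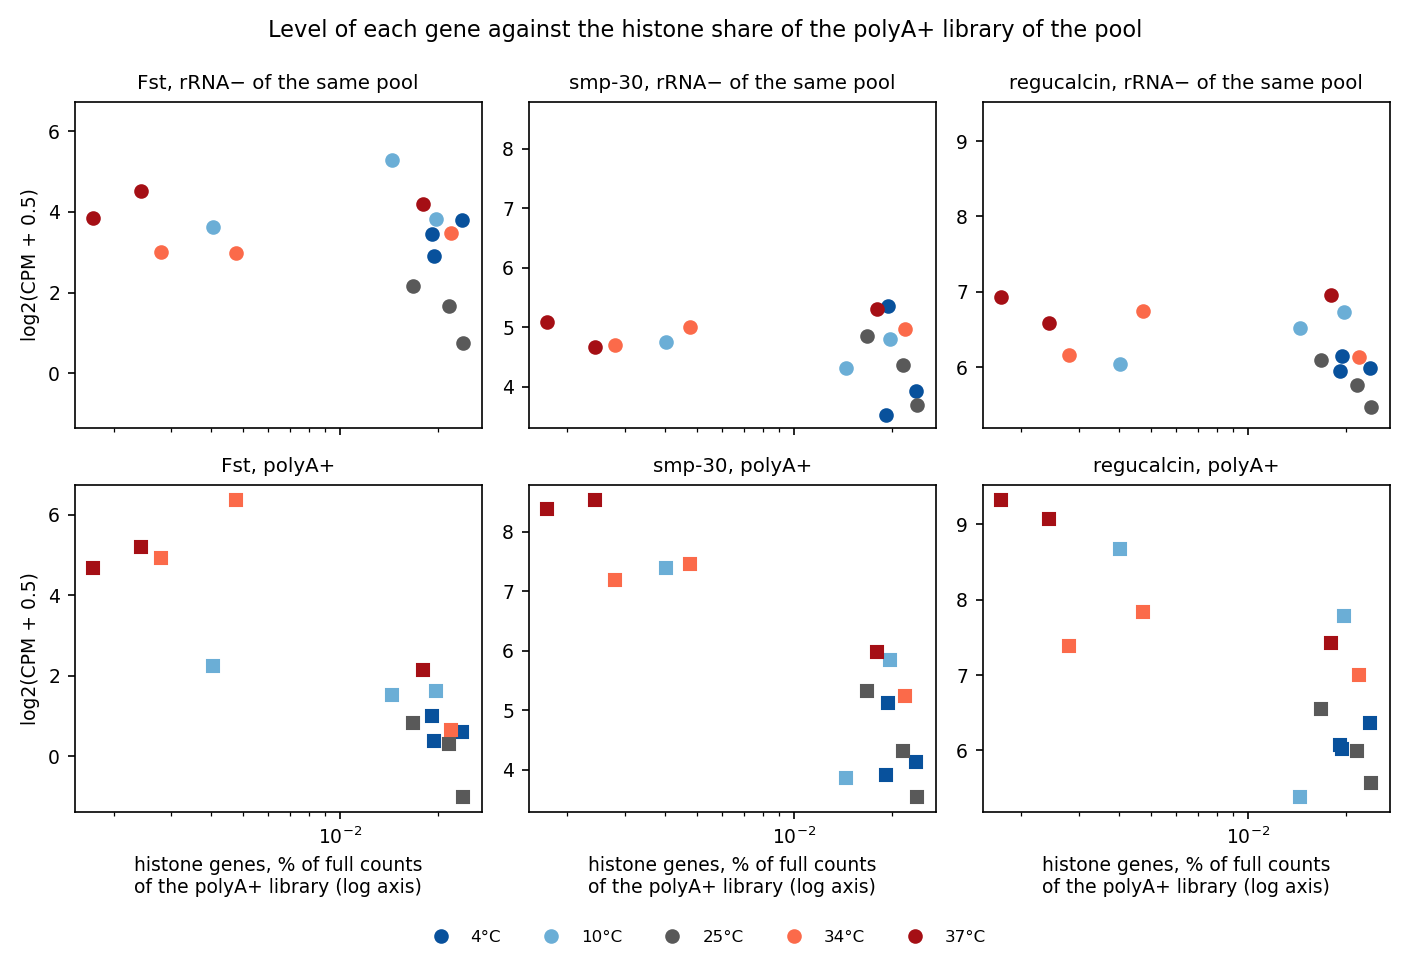
log2(CPM + 0.5) of each gene in the rRNA− (top, circles) and polyA+ (bottom, squares) library of each of the 15 pools, against the share of full counts taken by histone genes in the polyA+ library of the pool (log axis), coloured by temperature. The 5 squares at the left, with shares of 0.00173% to 0.00476%, hold Fst at 4.24 to 82.2 CPM and smp-30 at 145 to 372 CPM, above all other squares, and the circles of the same pools lie within the vertical range of the other circles.

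The response to temperature was compared between library types by its difference, rRNA− minus polyA+, in a fit of all 30 libraries. None of the 12 differences of the 3 genes passed. For Fst the difference at 34°C was -4.19 (SE 1.38, edgeR adjusted p = 1.0), the largest in size of the 12, and -2.86 without 34°C replicate 2. For smp-30 it was -2.92 at 37°C (SE 1.03, edgeR adjusted p = 0.256), and for regucalcin -1.79 at 37°C (SE 0.72, edgeR adjusted p = 0.266). Over all genes at most 0.0099% passed in either direction at any temperature by edgeR's test, 1 gene at 34°C and 1 at 37°C. At 37°C edgeR's test passed 181 genes higher and 357 lower without replicate 3, and DESeq2 passed 12 higher and 115 lower. At 4°C, where all polyA+ libraries had an ordinary histone share, the differences were 1.18 (SE 1.54) for Fst, 0.12 (SE 1.02) for smp-30 and 0.15 (SE 0.72) for regucalcin.

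The level itself was lower in rRNA− than in polyA+ libraries for smp-30 and regucalcin, as it was for many genes. Of 10103 genes tested, 38.8% were higher and 35.5% lower in rRNA− at an adjusted p under 0.05, with a median log2 ratio of 0.04. All or all but 1 of the 15 pools were higher in polyA+ for 21.2% of these genes and higher in rRNA− for 28.5%. Over the 15 pools the log2 ratio of the rRNA− level to the polyA+ level averaged -1.49 ± 1.46 for smp-30, with 1 of 15 pools higher in rRNA− (SD, n = 15, exact sign-flip test, 2-sided adjusted p = 0.00031 over all genes), and 4.29% of genes had a ratio as low. For regucalcin it averaged -1.18 ± 1.07, again with 1 of 15 pools higher in rRNA− (SD, n = 15, exact sign-flip test, 2-sided adjusted p = 0.00105 over all genes), and 9.45% of genes had a ratio as low. For Fst it was 0.89 ± 2.07, with 11 of 15 pools higher in rRNA− (SD, n = 15, exact sign-flip test, 2-sided adjusted p = 0.144 over all genes). Library type cannot be told apart here from sequencer and from the amount of RNA used, 0.3 µg for rRNA− and 0.8 µg for polyA+. Over all genes, the paired libraries deviated from their group means with correlations of 0.19 to 0.37 at 4°C and 0.22 to 0.45 at 25°C, and in the other groups from -0.31 to 0.22, so that the pairing is not evident in the data at every temperature.

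The ratio was lower in the pools whose polyA+ library had a low histone share. In the 10 pools of ordinary share Fst was higher in rRNA− in all 10, with log2 ratios of 1.10 to 3.39, and in the other 5 the ratios ran from -3.73 to 0.99. For smp-30 the ratios were -1.21 to 0.05 in the 10 pools and -4.35 to -2.81 in the 5. For regucalcin they were -1.22 to 0.73 in the 10 and -3.07 to -1.45 in the 5. The ratios contain the polyA+ levels compared above, so these splits are not a separate result. The share of all genes with such splits was not computed. At 25°C, where no pool had a low share, the ratios averaged 1.27 ± 0.29 for Fst, -0.46 ± 0.23 for smp-30 and -0.64 ± 0.07 for regucalcin (SD, n = 3 each).

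**Figure D5:**
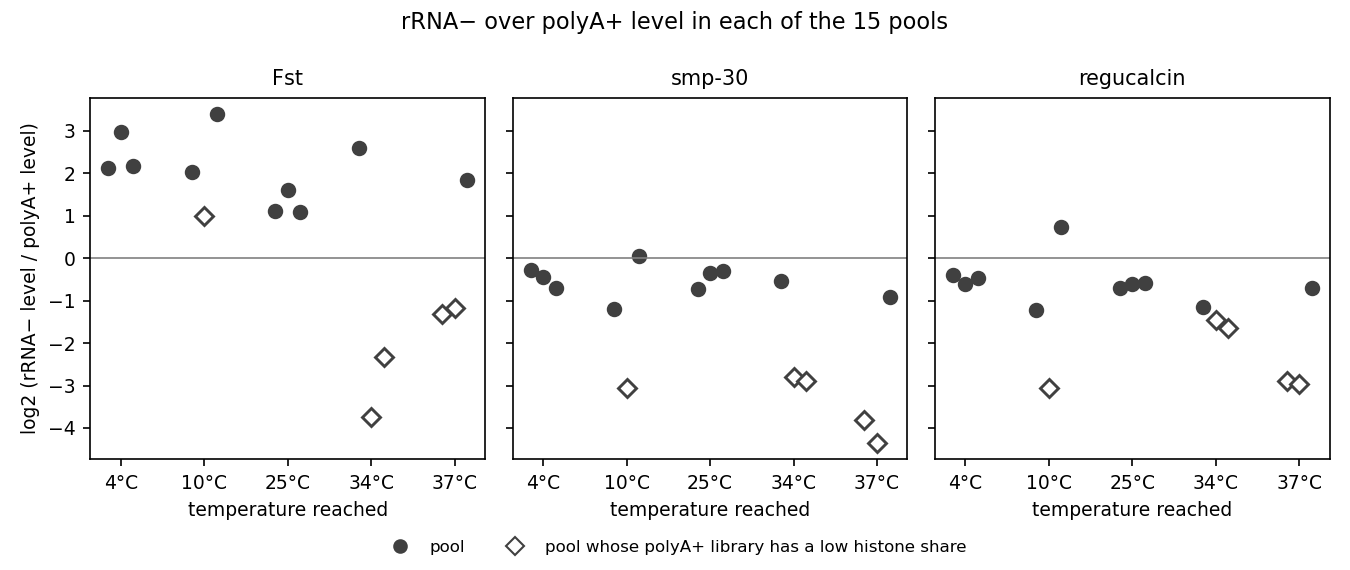
log2 ratio of the rRNA− level to the polyA+ level (CPM + 0.5) of each gene in each of the 15 pools, by temperature; open diamonds are pools whose polyA+ library is a low-histone one. All 10 filled points lie above 0 for Fst (1.10 to 3.39), while 9 of 10 lie below 0 for smp-30 and for regucalcin, and the open diamonds are the lowest points of their temperature for every gene.

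Levels can be compared between the genes only per length. As TPM, which also divides by the length of the union of exons, rRNA− libraries at 25°C held Fst at 3.71 ± 1.95 TPM, smp-30 at 20.4 ± 7.81 TPM and regucalcin at 54.2 ± 11 TPM (SD, n = 3 each). In polyA+ libraries at 25°C the levels were 0.724 ± 0.683 TPM, 18.7 ± 9.88 TPM and 54.1 ± 12.7 TPM in the same order (SD, n = 3 each). regucalcin was the more abundant of the related pair, and at 25°C the ranges of the 3 genes did not overlap in either library type. At 10°C in rRNA− libraries the Fst values of 15.9 to 48.7 TPM overlapped with those of smp-30, 17.4 to 25.0 TPM.

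The spread between pools of one temperature differed among the 3 genes. In rRNA− libraries the within-temperature SD of log2 CPM was 0.58 for Fst, 0.54 for smp-30 and 0.28 for regucalcin, beside 0.26 for the median gene, and 10.1%, 12.1% and 45.1% of genes had one at least as large. In polyA+ libraries it was 1.59, 1.25 and 0.94 in the same order, beside 0.66 for the median gene.

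smp-30 and regucalcin moved with each other over the polyA+ libraries and less so over the rRNA− libraries. Over 15 polyA+ libraries Pearson's r of their log2 CPM was 0.94, and it was 0.89 after the temperature means were subtracted. Over 15 rRNA− libraries r was 0.64 and 0.47 in the same order. Fst and smp-30 had r = 0.24 over rRNA− libraries and 0.86 over polyA+ libraries. Without the 5 low-histone libraries, over the other 10 polyA+ libraries, r was 0.87 for smp-30 and regucalcin and 0.59 for Fst and smp-30, a comparison added after seeing the data. These values describe libraries that share temperatures.

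The genes whose log2 CPM was most like that of each member over the 15 rRNA− libraries, among 9717 ranked, were different for each. For Fst they were RpL18, a ribosomal protein gene (r = 0.88), Spn28Dc, a serpin gene (r = 0.85), and CtsL3 (r = 0.83), with r of 0.00, 0.68 and 0.66 over polyA+ libraries. CtsL3 rose at 10°C in rRNA− libraries, with 5.52 ± 3.22 CPM against 1.56 ± 0.520 CPM at 25°C (SD, n = 3 each, log2 fold change 1.77, edgeR adjusted p = 0.0407). RpL18 and Spn28Dc did not pass there (edgeR adjusted p = 0.128 and 0.0832). For smp-30 they were mag, a lipase gene of the gut (r = 0.90), thetaTry, a trypsin-like protease gene (r = 0.89), and ninaD, a scavenger receptor gene needed for carotenoid uptake (r = 0.89), with r of 0.85, 0.94 and 0.94 over polyA+ libraries. thetaTry rose in polyA+ libraries at 37°C, with 212 ± 112 CPM against 9.38 ± 5.32 CPM at 25°C (SD, n = 3 each, log2 fold change 4.50, edgeR adjusted p = 0.0235). ninaD did not pass in that comparison (edgeR adjusted p = 0.0666). For regucalcin they were CG10086 (r = 0.93), Kyat, a kynurenine aminotransferase gene (r = 0.92), and Inos, which encodes inositol-3-phosphate synthase (r = 0.92), with r of 0.87, 0.80 and 0.96 over polyA+ libraries. Inos and Kyat rose at 37°C in rRNA− libraries by 0.63 (edgeR adjusted p = 0.0419) and 0.49 (edgeR adjusted p = 0.0438) on the log2 scale. CtsL3, Inos and Kyat were picked by their likeness to a member over these same rRNA− libraries. Their rises there follow in part from that choice and are not a separate result. In whole flies, a change in the share of cells of a type cannot be told apart from a change of RNA per cell.

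Dh44, which contains Fst, had 8 to 31 counts in rRNA− libraries and log2 fold changes from -0.14 to 0.13 at the 4 temperatures, none of which passed. jvl, which contains smp-30, fell at 10°C in rRNA− libraries to 109 ± 6.44 CPM, against 154 ± 19.0 CPM at 25°C (SD, n = 3 each, log2 fold change -0.50, edgeR adjusted p = 0.0292), where smp-30 read 0.27. On 1 side of each, Scm beside Fst and eff beside smp-30 also fell at 10°C, by 0.55 (edgeR adjusted p = 0.0222) and 1.25 (edgeR adjusted p = 0.0194) on the log2 scale. In this comparison 5.11% of all tested genes fell, and 0 genes fell without 25°C replicate 3. CG1492 and Lsm12a, beside regucalcin, did not pass at 10°C (edgeR adjusted p = 0.774 and 0.476). On the other side of smp-30, CG7362 had at most 1 count in any library and was not tested, and Dhc1, beside Fst, was not analysed here. Chrac-16, which shares exonic sequence with regucalcin, had a log2 fold change of -0.04 at 37°C in rRNA− libraries (edgeR adjusted p = 0.924), where regucalcin rose by 1.04. At 10°C Chrac-16 read 0.46 (edgeR adjusted p = 0.0565) and regucalcin 0.66, and the part of reads from their shared stretch was not tested.

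A list of 15 genes known from chill recovery and heat stress gave the setting in which the members moved. In rRNA− libraries 1 of 15 rose at 4°C (0.0103% of all tested genes), and 1 rose and 1 fell at 10°C (1.39% and 5.11%). In heat 9 rose at 34°C (1.08%), and 10 rose and 1 fell at 37°C (3.22% and 1.54%). vri, a clock transcription factor gene, rose in the cold, with 181 ± 5.63 CPM at 4°C and 162 ± 21.1 CPM at 10°C against 89.1 ± 8.10 CPM at 25°C (SD, n = 3 each, edgeR adjusted p = 0.0153 and 0.0077), and fell at 37°C to 61.3 ± 3.96 CPM (edgeR adjusted p = 0.0353). Hsp27, a small heat shock protein gene, fell at 10°C by 1.90 on the log2 scale (edgeR adjusted p = 0.0408). This fall was not called without 25°C replicate 3 or in the fit of 30 libraries, where 0 genes fell at 10°C. Hsp68, Hsp23 and the co-chaperone gene stv had the smallest p of the list, all at 37°C, with log2 fold changes of 8.42, 8.91 and 4.53. In the cold the median of the list was 0.01 at 4°C and -0.03 at 10°C, beside -0.01 and 0.01 over all tested genes. In heat it was 1.33 at 34°C and 3.35 at 37°C, beside -0.06 and -0.05. In polyA+ libraries 4 of the 15 rose at 34°C (0.0864% of all tested genes) and 9 at 37°C (3.76%), and none passed at 4°C or 10°C by edgeR's test (0 and 2 at an unadjusted p under 0.05, 0 by DESeq2).

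Of 19 tested genes of calcium handling, the system to which regucalcin is assigned in mammals, 3 fell at 10°C in rRNA− libraries, where 5.11% of all tested genes fell, and none passed by edgeR's test in the other 7 comparisons with 25°C, where 0 to 3 had an unadjusted p under 0.05 and 0 to 2 passed by DESeq2. CanA-14F, a calcineurin catalytic subunit gene, fell at 10°C to 94.6 ± 4.51 CPM against 184 ± 24.4 CPM at 25°C (SD, n = 3 each, log2 fold change -0.96, edgeR adjusted p = 0.00818). CBP, a calcium-binding protein gene, fell at 10°C by 1.68 (edgeR adjusted p = 0.0139) and CaMKII, a calcium/calmodulin-dependent kinase gene, by 0.86 (edgeR adjusted p = 0.0477) on the log2 scale. The median of the list was -0.15 at 10°C, beside 0.01 over all genes. These falls were not called without 25°C replicate 3 or in the fit of 30 libraries, where 0 genes fell at 10°C in rRNA− libraries.

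Among 18 tested genes of ion and water balance, 2 fell at 10°C and 1 fell at 37°C in rRNA− libraries, where 5.11% and 1.54% of all tested genes fell, with none passing by edgeR at 4°C or 34°C (2 and 1 at an unadjusted p under 0.05, 0 by DESeq2). nrv3, a beta subunit gene of the sodium pump, fell at 10°C to 53.7 ± 10.3 CPM against 149 ± 28.6 CPM at 25°C (SD, n = 3 each, log2 fold change -1.47, edgeR adjusted p = 0.00878), and Vha16-1, a proton pump subunit gene, fell by 0.56 on the log2 scale (edgeR adjusted p = 0.0410). Neither fall at 10°C was called without 25°C replicate 3 or in the fit of 30 libraries, where 0 genes fell. Irk1, an inwardly rectifying potassium channel gene, fell at 37°C by 0.53 on the log2 scale (edgeR adjusted p = 0.0285). Malpighian tubule genes summed to 264 to 302 CPM at 10°C and 317 to 342 CPM at 37°C, against 309 to 320 CPM at 25°C in rRNA− libraries. None of the 19 tested in polyA+ libraries passed by edgeR's test, where 0 to 6 had an unadjusted p under 0.05 and 4 passed by DESeq2, all at 37°C. From a list of cryoprotectant and membrane metabolism 8 genes were tested, without desat1 and desat2, so that membrane metabolism was not covered. Of the 8, 1 rose in each library type, both at 37°C. There 3.22% of all tested genes rose in rRNA− libraries and 3.76% in polyA+ libraries. Pepck1, of gluconeogenesis, rose by 0.65 on the log2 scale in rRNA− libraries (edgeR adjusted p = 0.0255). Tps1, of trehalose synthesis, rose by 1.93 on that scale in polyA+ libraries (edgeR adjusted p = 0.0472).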

How the data were processed

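Whole-number read counts per gene were deposited by the authors in full and equalized tables, without normalization. The equalized table, used here unless stated, leaves out rRNA and holds polyA+ reads of 85 bp, thinned to match rRNA− depth; the submitters' notes name dm6, STAR 2.7.7a and Salmon 1.4.0, and which of these made the counts is not given in the sources used here. Libraries of each type (15) were fitted with edgeR 4.0.16 in R 4.3.3 (TMM, filterByExpr, robust quasi-likelihood test), and Benjamini-Hochberg adjustment ran over all genes tested (9718 rRNA−, 9257 polyA+); a gene passed at an adjusted p under 0.05. Differences of response were tested on 30 libraries, and ratios by exact sign-flip tests over 15 pools (32768 flips, CPM + 0.5). Alternatives were DESeq2 1.42.0, other scaling, filters, counts and libraries. Code was tested on simulated data. The members and gene lists were chosen with earlier results of these data known. Named besides the members are the 3 genes most correlated with each, their neighbours, and up to 3 genes of smallest passing p per list, with vri and Hsp27 chosen after their values were seen. Camta, desat1, desat2, GlyP and GlyS were not analysed here. Intervals use the SE of the edgeR fit, which includes the spread between libraries, and floors cover counting error only.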

Additional observations from a re-analysis of the deposited data

How the results depend on the processing

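Log2 fold changes against 25°C of the 3 genes, their differences between neighbouring temperatures and library types, and the rRNA− over polyA+ ratios were recomputed under each alternative; 268 of 297 values kept their direction and side of the threshold, and 301 of 333 with 1 library or pool left out. DESeq2's Wald test added calls for Fst in rRNA− libraries at 4°C (2.00) and 34°C (1.74) and in polyA+ libraries at 34°C (5.93), for regucalcin at 10°C in rRNA− libraries (0.69) and for smp-30 at 37°C in polyA+ libraries (3.69). The smp-30 call at 37°C was also made with RLE size factors (3.70), full counts at 85 bp (3.64) or 150 bp (3.69), the 6 libraries compared alone (3.61) and the fit of 30 libraries (3.59). That fit gave a call for Fst at 34°C in polyA+ libraries (5.92) and none for Fst at 10°C (3.01), Fst at 37°C (2.77) or regucalcin at 37°C (1.05) in rRNA− libraries. The Fst call at 37°C in polyA+ libraries was lost with full counts at 85 bp (4.99) or 150 bp (4.93).

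With the replicate number as a block, the polyA+ calls at 37°C were lost for Fst (4.71) and regucalcin (2.54), and no other call of the 3 genes changed. Within a library type, libraries of 1 replicate number deviated from their group means with correlations of -0.44 to 0.42. Libraries of different replicate numbers were not compared in this way, so these values cannot tell whether the numbers pair the temperatures. With the pool as a block the difference of smp-30 between library types at 4°C was -0.0096 in place of 0.12.

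Without the 5 low-histone libraries, which leaves 1 library at 37°C and at 34°C, Fst at 37°C (2.54) and regucalcin at 37°C (1.34) lost their polyA+ calls and Fst at 37°C against 34°C was 1.98 in place of -0.80, the last an alternative added after seeing the data. The uncalled smp-30 value at 4°C in polyA+ libraries (-0.09) was 0.049 with RLE size factors, 0.019 without a filter, 0.11 and 0.13 with full counts at 85 and 150 bp, 0.045 by DESeq2 and 0.0037 with the 6 libraries alone. Scaling to library totals gave the Fst ratio as 1.22 (exact sign-flip p = 0.0367). The median of all genes at 37°C in polyA+ libraries was -0.18 with TMM and -0.02 with RLE, and at 10°C it was 0.10 and 0.26. What caused these changes was not tested.

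Leaving out 1 library at a time, values in rRNA− libraries ran over 2.31 to 3.46 for Fst at 10°C, -0.67 to 0.45 for smp-30 at 4°C, 0.50 to 0.84 for regucalcin at 10°C, 0.90 to 1.22 for regucalcin at 37°C, -0.0050 to 0.30 for smp-30 at 37°C against 34°C, and -0.94 to 0.18 for smp-30 at 4°C against 10°C. In polyA+ libraries they ran over 4.52 to 6.72 for Fst at 34°C, 4.42 to 5.92 for Fst, 3.08 to 4.06 for smp-30 and 2.38 to 3.11 for regucalcin at 37°C, -0.55 to 0.52 for smp-30 and -0.030 to 0.36 for regucalcin at 4°C, and -1.39 to 0.48 for Fst at 37°C against 34°C. For the difference between library types they ran over -0.085 to 0.22 for smp-30 at 4°C, -0.086 to 1.44 for Fst and -1.56 to 0.042 for regucalcin at 10°C, and for the Fst ratio over 0.71 to 1.22, where leaving out 34°C replicate 2 gave the highest (exact sign-flip p = 0.0219).

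Counts of passing genes moved by more than 1.5 times. In rRNA− libraries the genes that rose and fell numbered 135 and 497 at 10°C (1 to 319 and 0 to 659 over the alternatives), 105 and 24 at 34°C (22 to 411 and 1 to 112), and 313 and 150 at 37°C (52 to 492 and 9 to 217); at 4°C they numbered 1 and 0 (0 to 9 for both). In polyA+ libraries they numbered 8 and 0 at 34°C (4 to 149 and 0 to 7) and 348 and 15 at 37°C (7 to 1787 and 0 to 1114), and 0 at 4°C and 10°C (at most 57). Without 25°C replicate 3, 1 gene rose and 0 fell at 10°C in rRNA− libraries, and without 37°C replicate 3, 1193 rose and 645 fell at 37°C in polyA+ libraries. Fst had 6 to 20 equalized counts in rRNA− and 0 to 6 in polyA+ libraries at 25°C. In the full 85 bp table the polyA+ libraries there held 45, 0 and 13 counts, and the SE of Fst at 37°C was 1.56, against 1.31 with equalized counts.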

Other observations

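Fst depended on read length more than the related pair. Summed over the 15 polyA+ libraries, the full counts at 85 bp were 3327 for Fst, 27061 for smp-30 and 57618 for regucalcin, against 3009, 26469 and 56396 at 150 bp. The ratios were 1.11, 1.02 and 1.02, beside a median of 1.04 over 10750 genes with at least 100 counts, and 11.8% of these genes had a ratio as large as that of Fst.

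In rRNA− libraries the equalized and full counts of Fst were identical in all 15 libraries, and those of smp-30 and regucalcin differed by at most 1 and 2 counts. The low counts of Fst there are those of the full table.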
